A study of Mus musculus with 175 samples.

Results

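The genes described here are the 7 genes of the SCL/TAL1 transcription factor complex, Tal1, Lyl1, Lmo2, Ldb1, Cbfa2t3, Tcf3 and Tcf12. They were chosen by their symbols from the 49585 mouse features of the gene table, and 7 of 7 were found under a gene name of their own. Reads of single cells came from the livers of mouse fetuses at embryonic day 14.5 (E14.5). The fetuses were heterozygous for the reporter allele Runx1 P1-GFP::P2-hCD4/+, on a C57BL/6 background crossed with ICR. Runx1 has a distal (P1) and a proximal (P2) promoter, and in this allele GFP marks transcription from P1 and human CD4 marks transcription from P2. The genotype field of the sample labels spells the allele P2-GFP::P2-hCD4/+, whereas the protocol field and the article name P1-GFP. All sequenced cells carried this allele, and no wild type cells were sequenced. According to the article, lineage-negative SCA1- C-KIT+ CD16/32low CD41- CD150+ cells were sorted as CD34- megakaryocyte-erythroid progenitors (MEPs) or CD34+ common myeloid progenitors (CMPs), each split by human CD4. The libraries held full-length cDNA, 1 library per sorted cell. The MEP groups held 57 P2- and 48 P2+ cells and the CMP groups 27 P2- and 43 P2+ cells, of which 56, 47, 27 and 42 passed the cell filters. Series of 4 values are given in this order throughout. The labels call the CMPs low and high, which is read here as P2- and P2+. Livers of 2 litters were pooled before sorting, so that each population is 1 sample without a replicate, its cells are not replicates, and no p-value was computed.

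TAL1 (also called SCL) is a basic helix-loop-helix (bHLH) factor that binds E-box DNA only together with an E protein, such as the products of Tcf3 and Tcf12. LMO2 binds to TAL1 and links it to LDB1, which can dimerise and bring distant DNA sites together, and GATA1 or GATA2 joins through LMO2. LYL1 is the closest relative of TAL1 and can take its place in many settings, and CBFA2T3 (ETO2) binds the complex as a corepressor. The complex is required for blood formation in the embryo and works in erythroid cells, megakaryocytes and stem cells. ID proteins are HLH factors without a DNA-binding region that hold E proteins away from their partners.

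The coding stretch in which Tal1 and Lyl1 could be aligned without a gap is shown first, since reads of such close relatives could be mistaken for each other. It lies in the part that encodes the bHLH region, on GRCm38 in the GENCODE vM21 annotation. For Tal1 it is chr4:115068288-115068453 on the plus strand, in exon 5 of 5 of ENSMUST00000030489.8, and for Lyl1 it is chr8:84703909-84704074 on the plus strand, in exon 4 of 4 of ENSMUST00000037165.4. The capitals mark the bases that differ.
Tal1: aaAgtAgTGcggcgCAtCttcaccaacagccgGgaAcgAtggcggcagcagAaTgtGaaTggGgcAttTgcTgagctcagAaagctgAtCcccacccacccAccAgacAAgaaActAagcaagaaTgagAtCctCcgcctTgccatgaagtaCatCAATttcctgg
Lyl1: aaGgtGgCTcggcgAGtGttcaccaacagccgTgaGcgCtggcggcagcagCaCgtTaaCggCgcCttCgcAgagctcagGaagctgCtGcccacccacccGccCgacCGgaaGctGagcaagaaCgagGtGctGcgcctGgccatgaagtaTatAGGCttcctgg
Of the 166 bases, 129 were identical (77.7%) and 37 differed. The longest run of bases that any transcript of Tal1 shared with any transcript of Lyl1 was 14 bases, below the shortest read kept after trimming (36 bases). For Tcf3 and Tcf12 the corresponding run was 18 bases. A read that lies within 1 of these genes therefore has no exact copy in the other. Reads on exon bases shared with a neighbouring gene were not counted, which touches 3.84% of the exon bases of Ldb1 (shared with Pprc1), 3.52% of Cbfa2t3 (with Gm10612) and 0.222% of Lyl1 (with Nfix), and 0 bases of the other 4 genes.

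Bases upstream of transcription starts are shown for the 3 genes with a GATA motif there (Tal1, Ldb1 and Cbfa2t3), since GATA factors join the complex, and for Lyl1, the relative of Tal1. Windows from RefSeq starts on GRCm38.p6 were used for 6 of the 7 genes, 12 windows in all, and Lmo2 was not analysed here. There were 2 windows for Tal1, 3 for Ldb1, 2 for Cbfa2t3, 1 for Lyl1, 1 for Tcf3 and 3 for Tcf12, and those printed for the first 3 genes were picked for their GATA match. Each window holds the 250 bases before a start, and the printed windows share no base with an exon of their gene in GENCODE. Searched on both strands were the GATA motif (AGATAA or TGATAA), the ETS motif (AGGAAA or AGGAAG or CGGAAA or CGGAAG) and the E-box (CANNTG). Capitals mark GATA and ETS matches, and no match overlapped one of another motif.
Tal1, chr4:115056176-115056425, plus strand: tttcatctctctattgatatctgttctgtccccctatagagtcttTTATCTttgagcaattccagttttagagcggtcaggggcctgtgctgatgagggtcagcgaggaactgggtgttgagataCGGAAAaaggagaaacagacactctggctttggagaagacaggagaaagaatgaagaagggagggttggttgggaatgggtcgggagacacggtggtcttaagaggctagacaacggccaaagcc
Ldb1, chr19:46037071-46037320, minus strand: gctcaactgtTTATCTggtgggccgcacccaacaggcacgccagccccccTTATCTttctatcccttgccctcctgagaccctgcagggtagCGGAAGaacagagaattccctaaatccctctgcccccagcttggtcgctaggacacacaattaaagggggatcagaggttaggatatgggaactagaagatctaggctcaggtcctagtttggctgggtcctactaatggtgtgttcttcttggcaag
Cbfa2t3, chr8:122699110-122699359, minus strand: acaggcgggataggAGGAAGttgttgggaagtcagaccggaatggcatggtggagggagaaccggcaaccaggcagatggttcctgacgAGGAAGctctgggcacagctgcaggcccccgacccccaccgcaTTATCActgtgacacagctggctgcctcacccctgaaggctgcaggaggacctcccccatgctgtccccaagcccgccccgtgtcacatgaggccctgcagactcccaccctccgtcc
Lyl1, chr8:84701207-84701456, plus strand: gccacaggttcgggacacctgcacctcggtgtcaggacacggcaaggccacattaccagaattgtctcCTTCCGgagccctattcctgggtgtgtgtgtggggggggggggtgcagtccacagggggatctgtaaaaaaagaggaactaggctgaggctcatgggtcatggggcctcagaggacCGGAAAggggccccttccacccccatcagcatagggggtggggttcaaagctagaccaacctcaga
The printed window of Tal1 held 1 GATA and 1 ETS match and 0 E-boxes, that of Ldb1 2 GATA matches, 1 ETS match and 1 E-box, and that of Cbfa2t3 1 GATA match, 2 ETS matches and 4 E-boxes. That of Lyl1 held 0 GATA matches, 2 ETS matches and 1 E-box. The other windows of Tal1 (1), Ldb1 (2) and Cbfa2t3 (1) and all windows of Tcf3 and Tcf12 held 0 GATA matches. A GATA match stood in 3 of the 12 windows of these genes and in 16.6% of the 32851 windows of all genes, an ETS match in 57.2% and an E-box in 66.2%. These matches describe letters in a window and no binding was measured.

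Counts were raw reads per gene and cell. Total reads per cell were between 571806 and 2827426, and reads on mouse genes between 295064 and 1540631. The level of a population is the number of reads of a gene summed over its cells, per 1000000 summed reads on mouse genes (pooled CPM). The interval given with it is the exact 95% Poisson interval. Cells of 1 pool are not replicates and PCR copies are not independent molecules, so all intervals cover counting error only. The gate on CD34 was visible in the reads, with Cd34 at 0.0327 and 13.05 CPM in P2- and P2+ MEPs against 274.3 and 541 in P2- and P2+ CMPs. Of the other sort genes, Itga2b (CD41, gated negative) was at 33.6, 103.3, 32 and 39.1 CPM, and Slamf1 (CD150, gated positive) at 8.23, 97.2, 37.2 and 69.3. Kit was at 293.3, 262.2, 369.4 and 259.3 CPM, Fcgr3 (CD16) at 0, 0, 4.64 and 11.9, and Ly6a (SCA1) at 0 except in P2+ CMPs (5.58). Among 5 erythroid markers (Klf1, Epor, Hbb-bt, Hbb-bs and Car2) the summed CPM was 1260.0 and 759.6 in P2- and P2+ MEPs and 695 and 399 in P2- and P2+ CMPs. Of these markers, Hbb-bt went the other way, at 9.51 and 9.79 CPM in P2- and P2+ MEPs and 232.2 and 120.6 in P2- and P2+ CMPs. The 4 megakaryocyte markers Pf4, Gp9, Itga2b and Vwf summed to 33.7, 176, 85.6 and 87.3 CPM in the same order, and the 6 granulocyte/monocyte markers (Mpo, Elane, Prtn3, Ctsg, Csf1r and Ly6c2) to 9.41, 37.97, 284.4 and 524. The 5 mast cell and basophil markers (Cpa3, Mcpt8, Prss34, Gzmb and Ms4a2) summed to 0.327, 2.69, 72.8 and 34.2 CPM, with Prss34, Gzmb and Ms4a2 at 0. Cpa3 alone gave 0.327, 2.69, 72.7 and 34.2 of these. The 4 endothelial markers (Cdh5, Stab2, Kdr and Emcn) summed to 0.0653, 1.43, 27.5 and 67.5, of which Emcn alone gave 0, 0, 25.6 and 63.7. The 4 hepatocyte markers (Alb, Afp, Apoa1 and Ttr) summed to 10.6, 10.3, 24.7 and 13.1, where 12.7 CPM of the P2- CMPs were Alb reads of 1 cell. Lymphoid markers were at 0 except Cd79a in P2- CMPs, and of the 4 macrophage markers Adgre1, C1qa and C1qb were at 0 in every population and Vcam1 had 3, 3, 1 and 2 reads. The ERCC spike-in RNA gave 63.1, 41.1, 44.2 and 55.5 mouse reads per ERCC read in the same order. The part of these marker and spike-in differences in the results was not tested.

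Tal1 (ENSMUSG00000028717.12, chromosome 4, 115056426 to 115071755) was highest in MEPs. Its pooled level was 145 CPM (140.4 to 149) for P2- MEPs, 155 (151 to 159.6) for P2+ MEPs, 74.6 (70.7 to 78.7) for P2- CMPs and 48.6 (46.3 to 50.9) for P2+ CMPs, a range of 3.197-fold. No neighbours in this order had overlapping intervals, although the MEPs differed by only 1.07-fold. Over single P2- MEPs the lowest, median and highest levels were 21.8, 129.8 and 397 CPM, and over P2+ MEPs 0, 143 and 536. They were 0, 49.4 and 378.03 CPM over P2- CMPs and 0, 25.6 and 202 over P2+ CMPs. The ranges of all 4 populations overlapped, and in each population the median cell was far below the highest cell. With every cell thinned to 100000 mouse reads, a Tal1 read was found in 55 of 56 (98.2%) and 43 of 47 (91.5%) P2- and P2+ MEPs. It was found in 19 of 27 P2- CMPs (70.4%, exact Clopper-Pearson interval 49.8 to 86.2%) and 27 of 42 P2+ CMPs (64.3%, 48.03 to 78.4%). Part of the CMPs thus gave no Tal1 read at this depth.

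With mouse reads as the denominator, Lyl1 (ENSMUSG00000034041.4, chromosome 8, 84701457 to 84704715) had the narrowest range of the 7 genes, 1.45-fold. With ERCC reads it did not. The Lyl1 log2 ratio of P2+ over P2- MEPs was then -0.97, and the Cbfa2t3 ratios of the comparisons below were between -0.52 and -0.03. The levels of Lyl1 that follow are with mouse reads. Its pooled level was 234.7 CPM (229.3 to 240.1) for P2- MEPs, 184 (179 to 189) for P2+ MEPs, 266.2 (258.8 to 273.8) for P2- CMPs and 238.5 (233.5 to 243.5) for P2+ CMPs. It was highest in P2- CMPs and lowest in P2+ MEPs, and the intervals of P2+ CMPs and P2- MEPs overlapped. The lowest, median and highest cells were at 43.1, 221.8 and 673 CPM for P2- MEPs and at 0, 175 and 612 for P2+ MEPs. They were at 36.3, 211.6 and 757 CPM for P2- CMPs and at 37.9, 228.6 and 485 for P2+ CMPs, so that all 4 ranges overlapped. In contrast to Tal1, a Lyl1 read was found in every thinned P2- MEP, P2- CMP and P2+ CMP, and in 44 of 47 P2+ MEPs.

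Lmo2 (ENSMUSG00000032698.15, chromosome 2, 103957986 to 103981878), which encodes the LIM-only bridge, had the highest pooled CPM of the 7 genes in each population. Its level was 496 CPM (488 to 504) for P2- MEPs, 732 (723 to 742) for P2+ MEPs, 444 (434 to 453) for P2- CMPs and 243.4 (238.4 to 248.6) for P2+ CMPs, with no overlap between intervals and a range of 3.01-fold. Single P2- MEPs gave 17.4, 450.1 and 1108 CPM as the lowest, median and highest values, and P2+ MEPs 276.4, 749 and 1367. P2- CMPs gave 89.7, 372.4 and 1057 CPM, and P2+ CMPs 0, 228.4 and 723. The median P2+ CMP lay below the lowest P2+ MEP, although the ranges overlapped. A read was found in all thinned cells of the other 3 populations and in 38 of 42 P2+ CMPs. Within P2+ CMPs the Lmo2 interval overlapped that of Lyl1 (233.5 to 243.5 CPM), whose median cell was at 228.6 CPM.

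Ldb1 (ENSMUSG00000025223.14, chromosome 19, 46031570 to 46045214), the LIM domain-binding partner of LMO2, was highest in P2- MEPs and lowest in P2+ CMPs. The pooled level was 111 CPM (107 to 114) for P2- MEPs, 104 (101 to 108) for P2+ MEPs, 84.3 (80.1 to 88.6) for P2- CMPs and 45.7 (43.5 to 47.97) for P2+ CMPs, a range of 2.42-fold. The intervals of the MEP populations overlapped. Median cells were at 98.9, 99.6, 52 and 46.7 CPM, the lowest at 4.20, 0.959, 0 and 0, and the highest at 364.5, 320.007, 233.98 and 176. A read was found in 54 of 56, 44 of 47, 24 of 27 and 33 of 42 thinned cells.

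Cbfa2t3 (ENSMUSG00000006362.16, chromosome 8, 122625141 to 122699109), the corepressor gene, was highest in P2+ MEPs, as was Lmo2. It stood at 193 CPM (188 to 198) for P2- MEPs, 290.9 (284.99 to 296.9) for P2+ MEPs, 220.3 (213.6 to 227.2) for P2- CMPs and 150.5 (147 to 155) for P2+ CMPs, a range of 1.93-fold without overlap of intervals. The lowest, median and highest cells were at 0, 167 and 617 CPM for P2- MEPs and at 4.53, 328.1 and 738 for P2+ MEPs. They were at 0, 181 and 746 CPM for P2- CMPs and at 0, 131 and 459 for P2+ CMPs, again with overlap of all ranges. Between 90.5% and 97.9% of the thinned cells of a population had a read.

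With mouse reads as the denominator, the E protein genes had ranges between those of Lyl1 and Cbfa2t3. With ERCC reads their ranges were wider than those of both. Tcf3 then had a log2 ratio of -1.13 in P2- CMPs over P2- MEPs, and Tcf12 of -1.08 in P2+ over P2- MEPs. Tcf3 (ENSMUSG00000020167.14, chromosome 10, 80409514 to 80433647), which encodes E12 and E47, was at 244.9 CPM (239.3 to 250.5) for P2- MEPs, 217.3 (212.2 to 222.5) for P2+ MEPs, 160.1 (154 to 166) for P2- CMPs and 151 (147 to 155) for P2+ CMPs. Its range was 1.62-fold, and the intervals of the CMP populations overlapped. Single cells had medians of 227.7, 230.8, 126 and 145 CPM, lowest values of 18.3, 0, 0 and 0, and highest values of 472, 581, 421 and 418. Tcf12 (ENSMUSG00000032228.16, chromosome 9, 71842688 to 72111871), which encodes HEB, was at 62.6 CPM (59.8 to 65.5) for P2- MEPs, 45.3 (42.9 to 47.7) for P2+ MEPs, 71.7 (67.9 to 75.7) for P2- CMPs and 55.8 (53.4 to 58.2) for P2+ CMPs, a range of 1.58-fold. Its median cells were at 43.9, 34, 52 and 41.2 CPM, the lowest cell was at 0 in each population and the highest at 296.1, 254.6, 243.1 and 263.8. A Tcf3 read was found in at least 95.7% of the thinned cells of each population, and a Tcf12 read in 47 of 56, 31 of 47, 19 of 27 and 32 of 42.

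**Figure D1:**
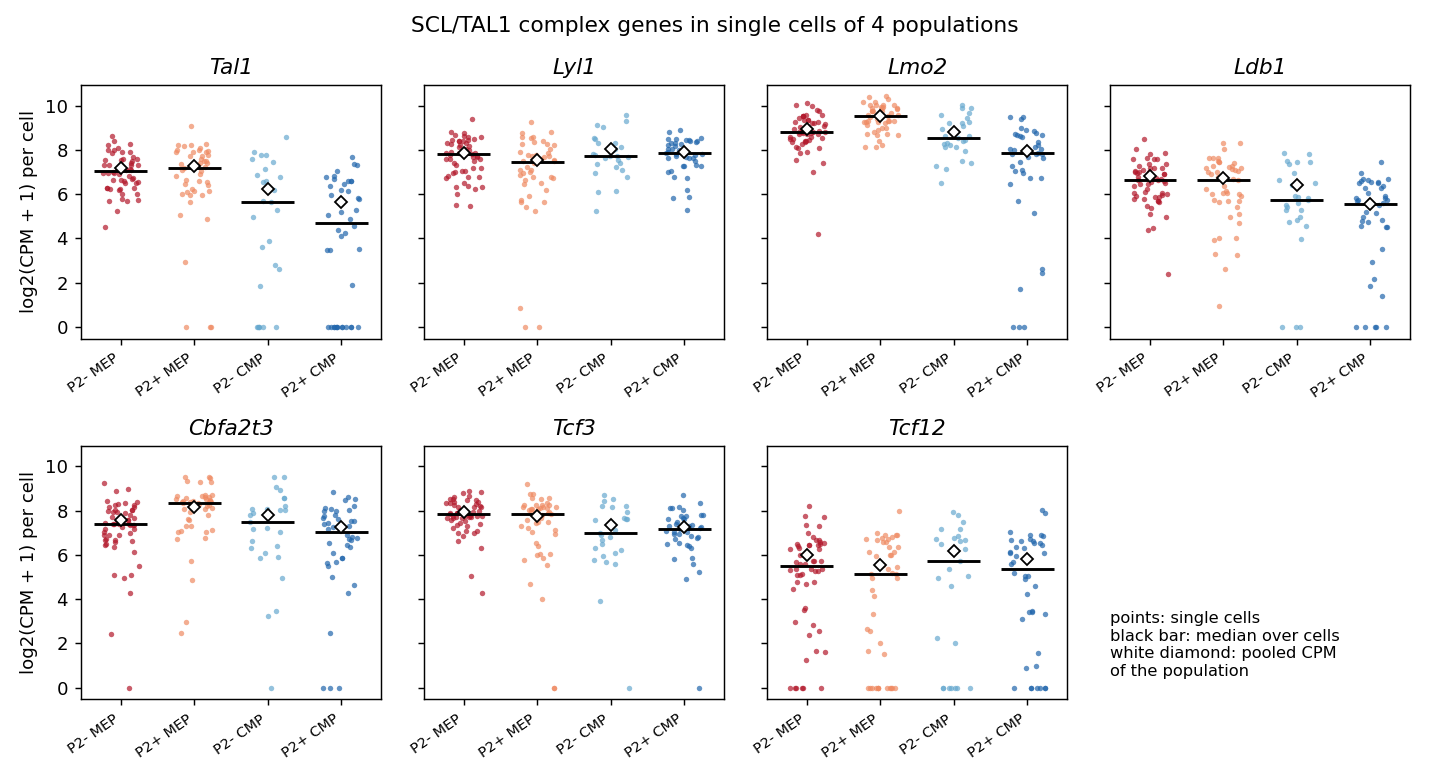
Level of each gene in single cells as log2(CPM + 1), with 1 point per cell, the median over cells as a black bar and the pooled CPM of the population as a white diamond, for 56 P2- and 47 P2+ MEPs and 27 P2- and 42 P2+ CMPs. Points at 0 are cells without a read, which for Tal1 are found among CMPs and few MEPs, while Lyl1 was read in every cell but 2 P2+ MEPs.

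P2+ and P2- MEPs were compared to see whether transcription from the P2 promoter of Runx1 went with different RNA levels of the complex genes. Neither their proteins nor the assembled complex were measured. Cbfa2t3 and Lmo2 were the members with the largest positive ratios in P2+ MEPs, and Tcf12 and Lyl1 those with the largest negative ones. The log2 ratio of pooled CPM, P2+ over P2-, was 0.59 for Cbfa2t3 (exact conditional binomial interval 0.54 to 0.64), 0.56 for Lmo2 (0.53 to 0.59), 0.10 for Tal1 (0.04 to 0.16), -0.08 for Ldb1 (-0.15 to -0.01), -0.17 for Tcf3 (-0.22 to -0.12), -0.35 for Lyl1 (-0.40 to -0.30) and -0.47 for Tcf12 (-0.57 to -0.37). Past 2-fold in either direction were 0 of 7 members, beside 33% of the genes with at least 10 summed reads. Low genes pass 2-fold by counting error more easily, and among genes with at least 1000 summed reads, as all 7 members had, the share was 7.33%. The median ratio of the members was -0.08, beside -0.01 for all genes with at least 1000 reads. When ERCC reads replaced mouse reads as the denominator, the median of all genes moved by -0.62 and the 3 positive ratios became negative, at -0.03 for Cbfa2t3, -0.06 for Lmo2 and -0.52 for Tal1. Tcf12 then passed 2-fold, at -1.08, and Lyl1 was at -0.97, beside 18.7% of all genes with at least 1000 reads past 2-fold at this denominator. Their order among the members did not change, since this setting shifts every gene alike.

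Between P2+ and P2- CMPs, all 7 members had a negative ratio, and only Lyl1 (0.17) and Tcf3 (0.24) turned positive with ERCC reads as the denominator. The ratio was -0.88 for Ldb1 (-0.98 to -0.78), -0.87 for Lmo2 (-0.91 to -0.82), -0.62 for Tal1 (-0.72 to -0.52) and -0.55 for Cbfa2t3 (-0.61 to -0.49). It was -0.36 for Tcf12 (-0.46 to -0.26), -0.16 for Lyl1 (-0.21 to -0.11) and -0.09 for Tcf3 (-0.15 to -0.02). As in MEPs, 0 of 7 members passed 2-fold, beside 32.1% of genes with at least 10 summed reads and 5.42% of those with at least 1000. The median of the members was -0.55, beside -0.02 for all genes with at least 1000 reads.

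P2- CMPs had their lowest ratios to P2- MEPs in Tal1 and Tcf3. Ratios of P2- CMPs over P2- MEPs were -0.96 for Tal1 (-1.04 to -0.87), -0.61 for Tcf3 (-0.67 to -0.55), -0.39 for Ldb1 (-0.48 to -0.30) and -0.16 for Lmo2 (-0.20 to -0.12). They were 0.18 for Lyl1 (0.13 to 0.24), 0.19 for Cbfa2t3 (0.13 to 0.25) and 0.20 for Tcf12 (0.09 to 0.30), and these 3 turned negative with ERCC reads as the denominator (-0.33, -0.33 and -0.32), while Tal1 (-1.47) and Tcf3 (-1.13) passed 2-fold, beside 25.05% of all genes with at least 1000 reads at this denominator. With mouse reads, members past 2-fold numbered 0 of 7, beside 40.8% of all genes with at least 10 summed reads and 15.3% with at least 1000. Tal1 was just inside the limit. It passed 2-fold without 1 P2- CMP whose cell subtype label names MEP (-1.03), without its highest cell in each population (-1.10) and with size factors (-1.013). It was further inside with equal weight of cells (-0.80) and without mitochondrial and Rn18s-rs5 reads in the denominator (-0.90).

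With mouse reads as the denominator, the largest ratios were those between P2+ CMPs and P2+ MEPs. Tal1, Lmo2 and Ldb1 were lower in P2+ CMPs by 3.197-fold, 3.01-fold and 2.28-fold, with log2 ratios of -1.68 (-1.76 to -1.60), -1.59 (-1.62 to -1.55) and -1.19 (-1.28 to -1.11). Thus 3 of 7 members passed 2-fold, all of them lower, beside 39.7% of genes with at least 10 summed reads in either direction and 16.5% in the lower direction. Among genes with at least 1000 summed reads these shares were 14.8% and 5.8%. Cbfa2t3 had a ratio of -0.95 (-1.0 to -0.90) and Tcf3 of -0.53 (-0.58 to -0.47). Lyl1 and Tcf12 had positive ratios, at 0.37 (0.33 to 0.42) and 0.30 (0.20 to 0.40). The median of the members was -0.95, beside -0.04 for all genes with at least 1000 reads. With ERCC reads as the denominator the median of all genes moved by 0.43, no member changed sign, and Tal1 (-1.24) and Lmo2 (-1.16) still passed 2-fold while Ldb1 (-0.76) did not, beside 20.4% of all genes with at least 1000 reads at this denominator. Each population enters 2 of these 4 comparisons, which are therefore not independent of each other.

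**Figure D2:**
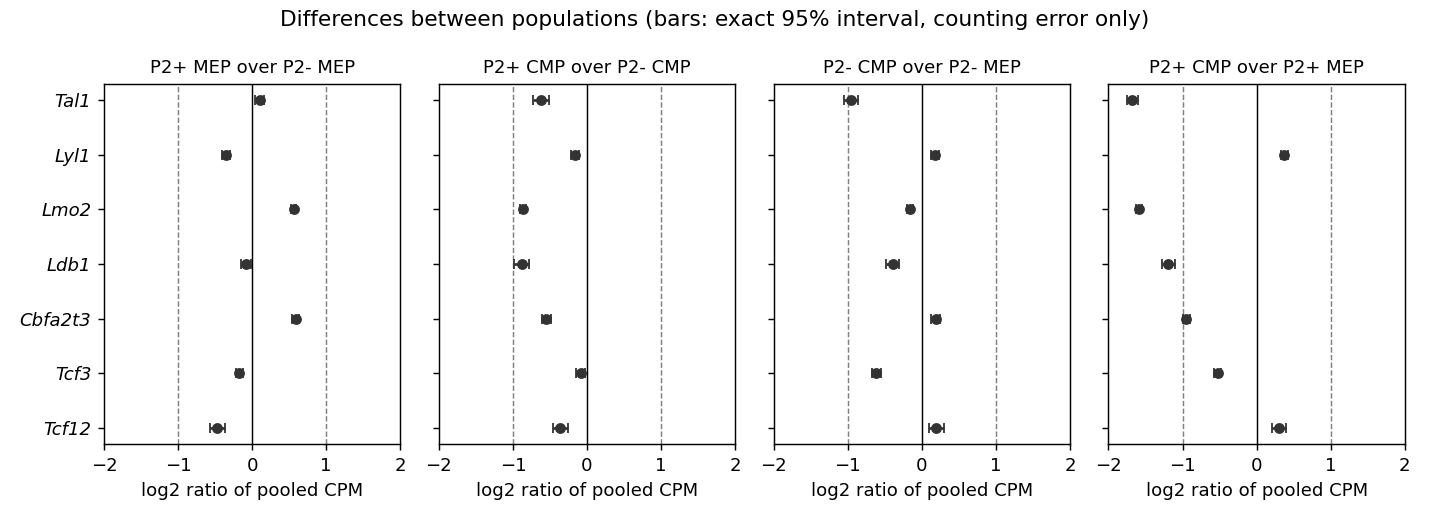
Log2 ratio of pooled CPM for the 7 genes in the 4 comparisons between populations, with exact 95% intervals of counting error and dashed lines at 2-fold. Tal1, Lmo2 and Ldb1 lie beyond the 2-fold line in P2+ CMPs over P2+ MEPs, where Lyl1 and Tcf12 lie to the right of 0. With ERCC reads as the denominator every point of a panel would shift by one value (-0.62, 0.33, -0.51 and 0.43 from left to right) and 8 of the 28 points would change sides of 0.

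Levels of different genes were compared per length. Reads were divided by exon length and scaled to 1000000 per population, which gives a level per length. Lmo2 stood first in 3 populations, at 558 and 829 in P2- and P2+ MEPs and 516 in P2- CMPs, and with 280.5 was below Lyl1 in P2+ CMPs. Lyl1 was at 317.4, 250.6, 372.7 and 330.6, and Tal1 at 80.5, 86.9, 42.9 and 27.7. Tcf3 lay between Lyl1 and Tal1 in every population, at 148, 132, 99.9 and 93.2. Ldb1 (58.4, 55.6, 46.1 and 24.8) and Cbfa2t3 (56.2, 85.2, 66.3 and 44.9) were nearer to Tal1, and Tcf12 was lowest in each population (9.82, 7.15, 11.6 and 8.96). A gene with many long isoforms, such as Tcf12, is set too low by a length over all of its exons if short forms prevail.

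Lyl1 exceeded Tal1 per length in all 4 populations, and by most in P2+ CMPs. Lyl1 per Tal1 was 3.95 (3.80 to 4.10) for P2- MEPs, 2.88 (2.77 to 2.995) for P2+ MEPs, 8.68 (8.17 to 9.22) for P2- CMPs and 11.95 (11.4 to 12.6) for P2+ CMPs. This quotient is of reads within the same cells and so is the same with any denominator, ERCC reads included. With equal weight for every cell it was 3.87, 3.0, 7.73 and 12.1, without the top cell of either gene 3.96, 2.86, 8.84 and 12.9, and without the P2- CMP of conflicting label 9.29 in P2- CMPs. At 100000 reads per cell, Tal1 was above Lyl1 per length in 4 of 56 and 9 of 47 P2- and P2+ MEPs and in 2 of 27 and 0 of 42 P2- and P2+ CMPs. Cells with a Lyl1 but no Tal1 read numbered 1, 4, 8 and 15 in the same order, cells with Tal1 but no Lyl1 0, 3, 0 and 0, and cells with neither 0. Each cell thus gave a read of at least 1 of these bHLH genes.

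**Figure D3:**
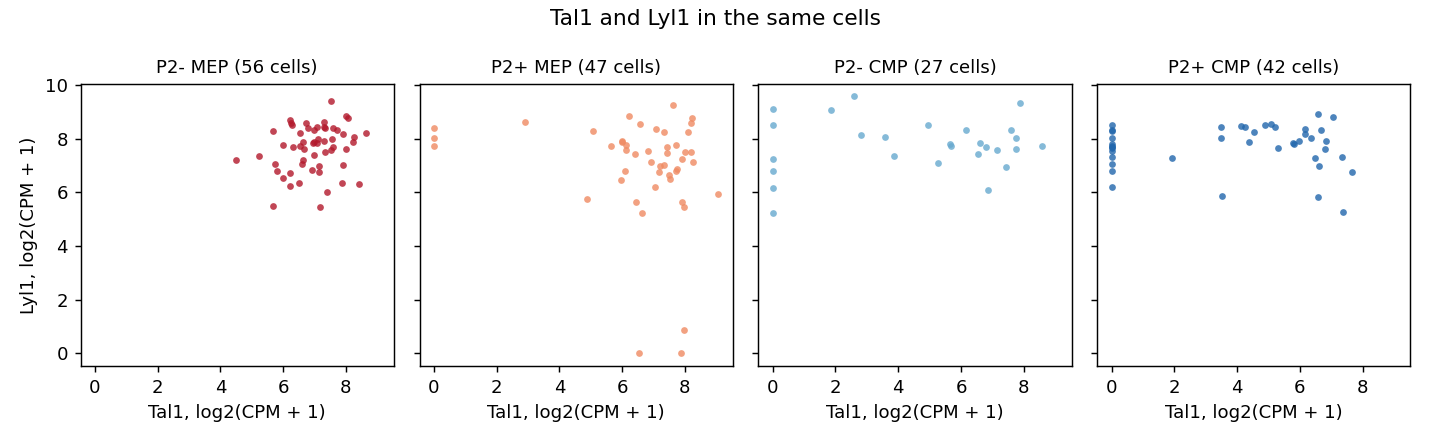
Tal1 (horizontal) against Lyl1 (vertical) in single cells as log2(CPM + 1), without thinning, in a panel per population. In CMPs a column of cells stands at 0 for Tal1 with Lyl1 still read, and 3 P2+ MEPs are the reverse or nearly so, with Tal1 read and Lyl1 at or near 0.

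Tcf3 and Tcf12 summed to 157, 139, 112 and 102 per length, and Tcf3 exceeded Tcf12 by 15.04, 18.5, 8.58 and 10.4-fold. The ID genes, which encode their inhibitors, had their highest sum in P2+ CMPs. Id1 to Id4 summed to 13.8, 46.9, 82.1 and 288.4 per length, so that the ID sum per sum of Tcf3 and Tcf12 was 0.0878, 0.337, 0.736 and 2.82. Tcf4, an E protein gene that is no member, had another order, at 46.95, 57.4, 75.98 and 58.98 CPM. With Tcf4 the E protein genes summed to 162, 144, 119 and 108 per length, and the ID sum per this sum was 0.0855, 0.325, 0.692 and 2.68. These are quotients of RNA levels and not of proteins. Among the ID genes, Id1 had the order of the sum, but Id2 was higher in P2+ MEPs (4.59 CPM) than in P2- CMPs (2.84), and Id4 was read in P2- MEPs only, with 13 reads of 1 cell. The pooled level of Id1 was 5.98 and 19.99 CPM in P2- and P2+ MEPs and 36.4 and 83.6 in P2- and P2+ CMPs. Id3 had 10, 0, 0 and 2111 reads, and its reads in thinned P2+ CMPs came from 9 of 42 cells. A read of any ID gene was found in 11 of 56, 16 of 47, 13 of 27 and 28 of 42 thinned cells. The sums over cells therefore rest on part of the cells, more so than those of the E protein genes.

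**Figure D4:**
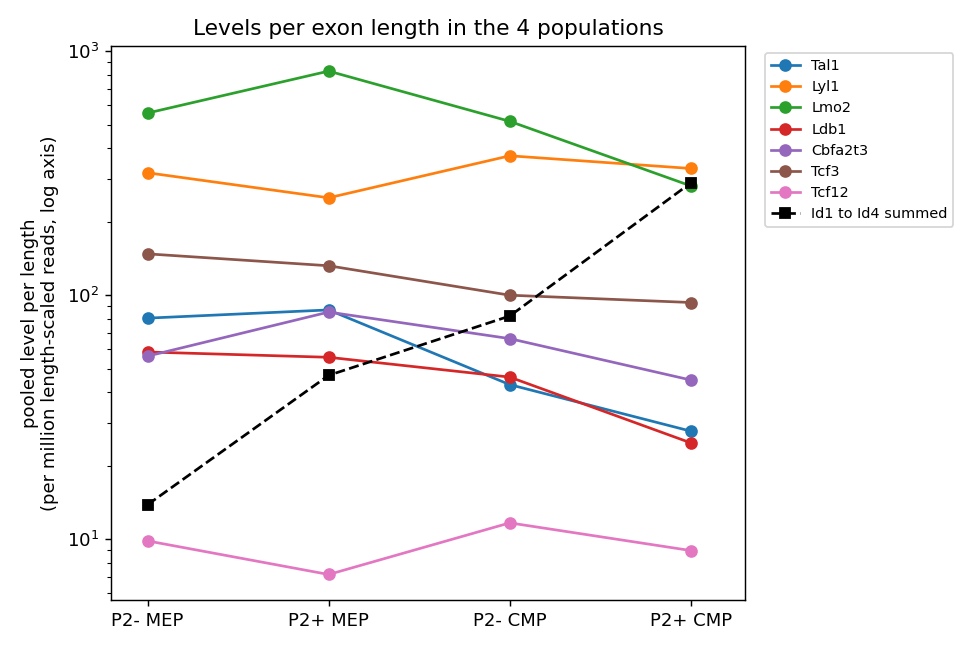
Pooled level per exon length of the 7 genes (circles) and of Id1 to Id4 summed (squares, dashed line) in the 4 populations, on a log axis. The ID sum climbs from 13.8 in P2- MEPs to 288.4 in P2+ CMPs. Tal1, Lmo2, Ldb1, Cbfa2t3 and Tcf3 reach their lowest levels there, and Lyl1 stays between 250.6 and 372.7.

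Whether the genes were read in the same cell was asked at 100000 reads per cell. All 7 were read in 44 of 56 (78.6%) and 24 of 47 (51.1%) P2- and P2+ MEPs and in 12 of 27 (44.4%) and 14 of 42 (33.3%) P2- and P2+ CMPs, and no cell gave fewer than 4. A minimal set of Lmo2, Ldb1, at least 1 of Tal1 and Lyl1, and at least 1 of Tcf3 and Tcf12 was read in 54, 43, 24 and 30 cells. Of these, 1, 3, 6 and 11 cells had a read of Lyl1 and none of Tal1. In P2+ CMPs these are 11 of the 30 cells with the set. At 50000 reads per cell, all 7 were read in 32, 20, 8 and 8 cells, and without thinning in 50, 31, 13 and 18.

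**Figure D5:**
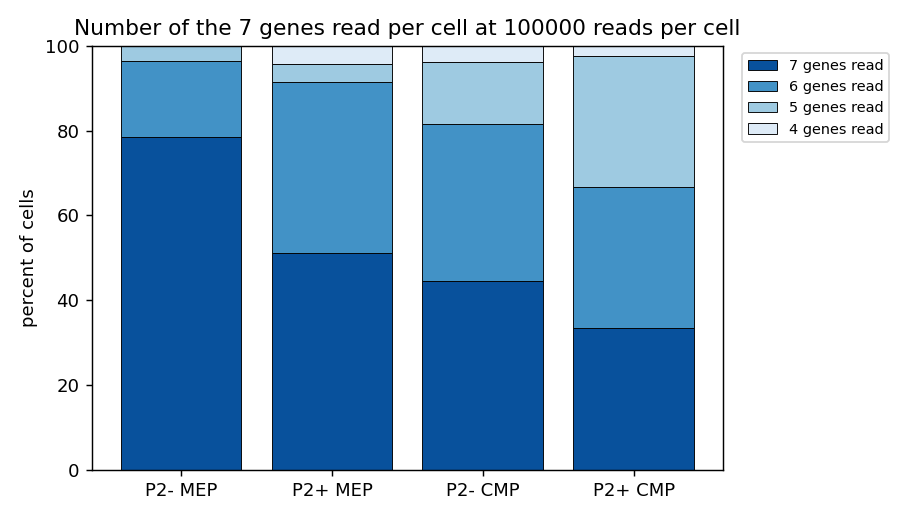
Percent of the cells of each population in which 7, 6, 5 or 4 of the 7 genes had a read at 100000 reads per cell (stacked bars). The share with all 7 is 78.6% and 51.1% in P2- and P2+ MEPs and 44.4% and 33.3% in P2- and P2+ CMPs.

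Within a population, coefficients between members over cells went both ways. Spearman coefficients over cells, for the 21 pairs of members, had medians of 0.10, 0.09, 0.04 and -0.06 in the populations, and extremes of -0.33 and 0.48. The highest was that of Lmo2 and Cbfa2t3 in P2- CMPs, over 27 cells. With Gata1, Gata2, Klf1, Fli1, Runx1 and Id1, the highest was Tal1 and Gata2 in P2- CMPs, at 0.79 over 27 cells, a pair singled out after the values were seen. The same pair had -0.16 in P2- MEPs, 0.23 in P2+ MEPs and -0.00 in P2+ CMPs. The lowest of these was Tcf12 and Id1 in P2- CMPs (-0.54), followed by Ldb1 and Fli1 in P2+ MEPs (-0.48). These coefficients describe sparse counts of single cells from 1 pool, which share depth and cDNA yield, and no test goes with them.

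Of the 6 partner DNA-binding factors (Gata1, Gata2, Runx1, Klf1, Fli1 and Erg), Gata1 and Klf1 were, like Tal1, lower in CMPs than in MEPs of the same P2 state in both comparisons. Gata1, which joins the complex in erythroid cells, was at 265.9, 237.8, 103 and 43.6 CPM. Gata2, its partner in earlier progenitors, was at 35.2, 212.1, 174 and 102 CPM. For the counts past 2-fold of this and the following lists, the shares of all genes past 2-fold in either direction were those given with the members. With ERCC reads as the denominator, 6 of the 60 calls in these lists were lost (Runx1 in P2+ over P2- MEPs, Gata1, Ldb2 and Irf2bp2 between CMPs, and Gata2 and Lmo4 in P2+ CMPs over P2+ MEPs) and 9 were gained. Gained were Klf1 (-1.59), Ssbp3 (-1.06) and Rcor1 (-1.02) in P2+ over P2- MEPs and Alas2 (1.15) between CMPs. Ssbp3 (-1.30), Id3 (at most -1.51) and Alas2 (-1.50) were gained in P2- CMPs over P2- MEPs. Runx1t1 (1.39) and Hdac1 (1.0003) were gained in P2+ CMPs over P2+ MEPs. In P2+ over P2- MEPs, 4 of the 6 genes were past 2-fold higher, beside 33% of genes with at least 10 reads and 7.33% with at least 1000, with ratios of 3.44 for Fli1, 2.59 for Gata2 and 1.29 for Runx1, and a bound of at least 3.73 for Erg, which had 0 reads in P2- MEPs. Of the 41 Erg reads in P2+ MEPs, 40 came from 1 cell. Without the highest cell of each gene in each population, 3 of these were higher, without Erg, and Klf1 was lower (-1.07). In P2+ over P2- CMPs, Runx1 was past 2-fold higher (1.12, and 0.998 without the highest cells) and Gata1 (-1.24) and Klf1 (-4.25) lower, beside 32.1% and 5.42% of all genes. In P2- CMPs over P2- MEPs 4 of 6 were higher, with Fli1 at 3.86, Gata2 at 2.31, Runx1 at 1.61 and Erg at least 7.76, and Gata1 (-1.37) and Klf1 (-2.45) were lower, beside 40.8% and 15.3%. In P2+ CMPs over P2+ MEPs, Erg (4.47) and Runx1 (1.45) were higher and Klf1 (-5.73), Gata1 (-2.45) and Gata2 (-1.06) lower, beside 39.7% and 14.8%. Without the highest cells Gata2 was at -0.97, Erg at 9.69 on 1 read in P2+ MEPs, and Klf1, with 29 reads left in P2+ CMPs, at -8.10 there and at -6.47 between CMPs. The list medians were 1.94, -0.50, 1.96 and -0.43 in the 4 comparisons, beside 0.06, -0.00, 0.09 and 0.02 for all genes with at least 10 reads.

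Among 8 relatives and stabilisers of LMO2 and LDB1 (Ldb2, Lmo1, Lmo3, Lmo4, Ssbp2, Ssbp3, Ssbp4 and Rlim), 0 were past 2-fold between P2+ and P2- MEPs, and Ldb2 was the only one between CMPs (-1.27), beside 33% and 32.1% of genes with at least 10 reads and 7.33% and 5.42% with at least 1000. Ldb2 and Lmo1 had most of their reads in CMPs, with Ldb2 at 0, 0.095, 20.8 and 8.64 CPM and Lmo1 at 0.621, 0.887, 22.4 and 19.6. They had ratios of 6.51 (4.95 to 8.79, with 3 P2+ MEP reads) and 4.47 in P2+ CMPs over P2+ MEPs. In P2- CMPs over P2- MEPs the ratio was at least 7.73 for Ldb2 and 5.17 for Lmo1. All 28 Lmo1 reads of P2+ MEPs came from 1 cell, and without the highest cells the Lmo1 ratios were at least 7.41 for the P2+ and 6.65 for the P2- populations, and those of Ldb2 7.61 (on 1 P2+ MEP read) and at least 7.12. Reads of both genes came from few cells, with Ldb2 in 5 of 27 and 7 of 42 thinned CMPs and Lmo1 in 8 of 27 and 13 of 42. Lmo4 was lower in CMPs, at -1.08 in P2- and -1.004 in P2+ cells. Thus 3 of 8 genes were past 2-fold in each of these comparisons, beside 40.8% and 39.7% (15.3% and 14.8% at 1000 reads). Of the 8, 7 had at least 10 summed reads. The Ssbp genes, whose products protect LDB1 from degradation, stayed within 2-fold in all 4 comparisons (with ERCC reads as the denominator Ssbp3 did not, at -1.06 in P2+ over P2- MEPs and -1.30 in P2- CMPs over P2- MEPs), as did Rlim, a ubiquitin ligase of LDB1, and Lmo3 had no read.

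Among the 6 bHLH relatives and inhibitors (Tal2, Tcf4, Id1, Id2, Id3 and Id4), Id1, Id2 and Id3 were past 2-fold higher in P2+ CMPs over P2- CMPs, at 1.20, 3.25 and at least 8.47, and over P2+ MEPs, at 2.06, 2.56 and at least 9.26. These 3 genes, of 4 in the list with at least 10 reads, stood beside 32.1% and 39.7% of genes with at least 10 reads. At 1000 reads the shares were 5.42% and 14.8%. Without the highest cell of each gene in each population they were past 2-fold as well, with Id2 at 5.50 and 4.26. In P2+ over P2- MEPs, Id1 (1.74) and Id2 (3.05) were higher, while Id3 (at most -1.78) and Id4 (at most -2.16) had 10 and 13 reads in the P2- and 0 in the P2+ cells. In P2- CMPs over P2- MEPs, Id1 (2.61) and Id2 (2.35) were higher and Id4 was lower, at most -1.38. These 4 and 3 genes, each of 5 in the list with at least 10 reads, stood beside 33% and 40.8% (7.33% and 15.3% at 1000 reads). In P2- MEPs all 17 Id2 and all 13 Id4 reads came from 1 cell each, and in P2- CMPs 43 of 52 Id2 reads did. Without the highest cells, Id3 and Id4 gave no call in P2+ over P2- MEPs, and in P2- CMPs over P2- MEPs Id1 was the only gene past 2-fold (2.89). Tcf4, the third E protein gene, stayed within 2-fold, between -0.37 and 0.69, and Tal2 had no read.

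Of the 11 relatives and corepressors of CBFA2T3 (Cbfa2t2, Runx1t1, Hdac1, Hdac2, Hdac3, Ncor1, Sin3a, Rcor1, Kdm1a, Gfi1b and Irf2bp2), 0 were past 2-fold in P2+ CMPs over P2+ MEPs, 1 in P2+ over P2- MEPs (Runx1t1, at least 3.96) and 2 in P2+ over P2- CMPs (Runx1t1 at 1.11 and Irf2bp2 at -1.002). In P2- CMPs over P2- MEPs there were 3, with Runx1t1 (at least 3.80) higher and Gfi1b (-1.14) and Rcor1 (-1.08) lower. The shares of all genes with at least 1000 reads were 14.8%, 7.33%, 5.42% and 15.3% for these comparisons in turn. With ERCC reads as the denominator, Runx1t1 (1.39) and Hdac1 (1.0003) passed 2-fold in P2+ CMPs over P2+ MEPs, beside 20.4% of these genes. Rcor1 (-1.02) then passed it in P2+ over P2- MEPs, beside 18.7%. Runx1t1, which encodes ETO, rested on 0, 48, 25 and 107 reads, of which 46, 25 and 78 came from 1 cell each in the last 3 populations. Without the highest cells it gave no call in P2+ over P2- MEPs and in P2- CMPs over P2- MEPs, and was at least 2.25 between CMPs and 3.66 in P2+ CMPs over P2+ MEPs.

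Of 9 genes described as targets of the complex (Kit, Epb42, Slc4a1, Alas2, Hbb-bs, Hbb-bt, Nfe2, Mef2c and Cdkn1a), 3 were past 2-fold higher and 2 lower in P2+ over P2- MEPs, beside 33% of genes with at least 10 reads and 7.33% with at least 1000. Mef2c (2.24), Cdkn1a (3.10) and Alas2 (1.96) were higher, and Slc4a1 (-1.94, on 7 against 26 reads) and Epb42 (at most -3.67) were lower. Between CMPs, Epb42 was higher (at least 3.29, 58 against 0 reads) and 0 genes were past 2-fold lower, beside 32.1% and 5.42%. P2- CMPs over P2- MEPs had Mef2c (2.17), Cdkn1a (3.18) and Hbb-bt (4.61) higher and Epb42 (at most -2.89), Slc4a1 (at most -2.38) and Hbb-bs (-6.91) lower, beside 40.8% and 15.3%. P2+ CMPs over P2+ MEPs had Epb42 (at least 4.07) and Hbb-bt (3.62) higher and Alas2 (-2.12) and Hbb-bs (-7.52) lower, beside 39.7% and 14.8%. All 58 Epb42 reads of P2+ CMPs and 31 of the 37 in P2- MEPs came from 1 cell each, as did the 7 Slc4a1 reads of P2+ MEPs and 33 of the 35 Alas2 reads of P2+ CMPs. Without the highest cell of each gene in each population, Epb42 and Slc4a1 gave no call in any comparison, and Alas2 was at -5.14 and Hbb-bs at -9.29 in P2+ CMPs over P2+ MEPs. Hbb-bs then passed 2-fold in P2+ over P2- MEPs (1.40), Cdkn1a between CMPs (1.26) and Alas2 in P2- CMPs over P2- MEPs (-1.57). Hbb-bs and Hbb-bt are near-identical copies, so that their counts are uncertain. Kit, the receptor gene used in the sort, and Nfe2 stayed within 2-fold throughout, at -0.51 to 0.33 and -0.61 to 0.91.

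For each member, the genes with the most similar level over all 172 cells were sought among 5379 genes read in at least 50% of the cells at 100000 reads per cell, by the Pearson coefficient of log2(CPM + 1). For Tal1 these were Mt1 (0.58), Samd14 (0.54) and Gm15915 (0.52), which fell to 0.34, 0.31 and 0.21 once each gene was centred on its population mean. Lmo2 was nearest to Hnrnpd (0.47, centred 0.34), Cited4 (0.45, 0.20) and Hnrnpl (0.44, 0.32), and Ldb1 to Nsun2 (0.41, 0.30), Tnfaip2 (0.38, 0.23) and Zfas1 (0.38, 0.28). Tcf3 was nearest to Chd4 (0.43, 0.44), Cdc34 (0.41, 0.39) and Nup205 (0.40, 0.38), coefficients that barely changed with centring. Lyl1 came nearest to Mrps24 (0.34, 0.35), Znhit6 (0.33, 0.31) and Mrps25 (0.32, 0.29). Cbfa2t3 was closest to Lars2 (0.37, 0.30), Gm26917 (0.35, 0.30) and Grb10 (0.34, 0.28), and Tcf12 to Kif22, Myh10 and Ndufv1 (0.28, 0.28 and 0.27). No member was among the nearest genes of another. The cells share their pools and their depth was made equal, and the coefficients are descriptions.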

How the data were processed

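Counts of RNA reads per gene were analysed in 172 single cells of 4 sorted populations. The authors used Trimmomatic 0.36 for trimming, STAR 2.4.2a for alignment to GRCm38 with ERCC sequences added, and HTSeq 0.6.1p1 for counting on GENCODE M12 exons, ignoring strand. The deposited counts are raw reads without normalization. Unmapped reads are given as a percent of a cell's reads in the deposited alignment table. As in the methods of the article, cells were kept with at least 250000 reads, at most 25% unmapped and at most 15% of counted reads from ERCC features. Uniquely mapped reads that were ambiguous (25.6%) or outside genes (7.40%) and the HTSeq tally rows entered no total.

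Pooled CPM were computed from the summed reads of a population. Ratios used no pseudocount. Where a population had 0 reads, 3 reads over the whole population were put in their place and the ratio is a bound. Genes with at least 10 summed reads over both populations formed the background, and a minimum of 1000 was added after seeing the data, as were, for context genes, leaving out the highest cells and scaling by ERCC reads. Cells were thinned to 100000 reads without replacement, which left out 0 cells. No doublet caller was run, and 2 wells had reads of both Xist and a Y chromosome gene. Exon lengths and positions came from GENCODE vM21, a later release on the same build. The ratio code was tested on simulated data. Python 3.11.15, scipy 1.17.1 and DESeq2 1.42.0 (size factors only, as an alternative) were used.

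All 7 members, the marker and context lists, and the genes nearest to each member are named; of context genes those past 2-fold are given values. Some genes of the marker and context lists are not reported here and enter no count or sum of a list. The members and lists were chosen with earlier results of these data known. With 1 sample per population no test across samples was possible. The alternatives changed the scaling, the weight of cells, the cells included, the fold, the minimum of reads and the depth of thinning.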

Additional observations from a re-analysis of the deposited data

Results flagged for a closer look

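Tal1, Lmo2 and Cbfa2t3 had P2+ over P2- ratios of opposite sign in MEPs and in CMPs, with 1 sample per population. The log2 ratio in CMPs minus that in MEPs was -0.72 for Tal1, -1.43 for Lmo2 and -1.14 for Cbfa2t3. This difference was not tested, since no population has a replicate. With ERCC reads as the denominator, the ratios of these 3 genes were negative in both cell types, at -0.52, -0.06 and -0.03 in MEPs and -0.29, -0.54 and -0.22 in CMPs, so that the opposite signs were lost. The differences were then 0.23, -0.48 and -0.19. This setting shifts every gene of a comparison alike. The median P2+ over P2- ratio of all genes with at least 1000 reads was then -0.63 in MEPs and 0.31 in CMPs.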

How the results depend on the processing

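Members past 2-fold between P2+ and P2- MEPs numbered 0, and 1 with ERCC reads as the denominator or with a limit of 1.5-fold. Between P2+ and P2- CMPs they numbered 0, and 3 at 1.5-fold. For P2- CMPs over P2- MEPs they numbered 0, and 1 with size factors, without the highest cell of each gene or without the CMP of conflicting label, and 2 with ERCC reads or at 1.5-fold. For P2+ CMPs over P2+ MEPs the 3 members became 4 with size factors, equal weight of cells or 1.5-fold, and 2 with ERCC reads. Among all genes with at least 1000 reads, the shares past the limit were 21.8%, 19.9%, 35.1% and 33.9% at 1.5-fold and 18.7%, 8.01%, 25.05% and 20.4% at 2-fold with ERCC reads, for these comparisons in turn, and between 4.70% and 15.5% with the other settings. Of the 28 member ratios, 28 kept their sign under each of 7 alternatives, with moves of at most 0.24 on the log2 scale, and 20 kept it with ERCC reads, which shift every gene of a comparison by 1 value. Shares of cells with a read moved by less than their interval for 27, 25 and 24 of 28 values at 50000 reads, 200000 reads and without thinning. No paired analysis was possible because each population is 1 sample and its cells carry no numbers that pair them. Without thinning, a Tal1 read was found in 29 of 42 P2+ CMPs and 21 of 27 P2- CMPs, against 27 and 19 with it. For the other gene lists, leaving out the highest cell of each gene in each population and scaling by ERCC reads were chosen after seeing the data, and the effects stand beside those lists.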
